A study of Mus musculus with 8 samples.

Results

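The cytosolic ribosomal protein genes are the 68 autosomal protein-coding genes of the mouse whose symbols are Rpl or Rps followed by a number and, in some cases, the letter a. They were chosen by symbol alone, out of 21078 protein-coding genes with a replication timing value, and comprise 40 genes of the large ribosomal subunit (Rpl) and 28 genes of the small subunit (Rps). All 68 had a value, so none was lost to a filter. Another 4 genes of the same symbol pattern, Rpl39, Rpl10, Rps4x and Rpl36a, lie on chromosome X and were counted apart. Per gene, the value was the mean score of the windows over the gene body. These genes are short, with a median length of 3170 bases against 17725 bases over all genes. As a result 33 members took their value from 1 window, 27 from 2 windows, Rps15a and Rpl22 from 3, and 6, among them Rpl13, Rpl10a, Rpl3, Rpl41 and Rpl29, from the nearest window.

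Ribosomes are built from a small subunit, which decodes the mRNA, and a large subunit, which joins the amino acids, and each holds a set of proteins around its ribosomal RNA. The protein genes are scattered over the genome, are expressed in nearly all cells at high levels, and are needed in matched amounts. Replication timing is the order in which loci are copied during S phase: gene-dense, active chromatin is usually copied early and gene-poor, silent chromatin late, in domains far longer than a ribosomal protein gene.

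Timing was profiled by Repli-seq in E14Tg2a mouse embryonic stem cells, a male line of 129/Ola background, with an auxin-inducible degron on CTCF in both groups. CTCF is a DNA-binding protein that anchors chromatin loops together with cohesin, and the degron tag lets auxin trigger its breakdown. For 2 days, one group grew with 500 µM indole-3-acetic acid, an auxin, and the control group grew without it. Cells of both groups were given a 2-hour pulse of BrdU. Each group has 2 profiles, and each profile joins the library of early S phase with that of late S phase. The series holds no auxin-treated cells without the degron, so effects of auxin itself and of CTCF loss cannot be told apart, and the level of CTCF protein is not among the values used here. A higher score means earlier replication. Scores are in units of unstated log base, with an SD of 2.1 over the windows of a profile, and were quantile normalized by the authors, which removes any genome-wide shift. The files hold no read counts, so depth is unknown. Since the labels do not name separate cultures, p-values cover only the spread between these profiles, and that spread may be technical. The pluripotency genes Pou5f1 (3.15 and 3.25 in auxin profiles, 2.63 and 3.20 in control profiles) and Nanog (2.88 and 3.06 in auxin profiles, 2.41 and 3.13 in control profiles) were early in both groups, which is a check of timing and not of expression. The same held for Sox2 (2.02 and 2.32 in auxin, 2.67 and 2.19 in control profiles) and for Ctcf itself (3.62 and 3.45 in auxin, 3.80 and 4.22 in control profiles).

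Ribosomal protein genes replicated early. Their median score was 3.09 and 3.24 in the 2 auxin profiles, against 2.76 and 3.15 in the 2 control profiles. Over all genes the medians were 1.83 and 1.85 in auxin profiles and 1.88 and 1.89 in control profiles, so the members' median lay above that of all genes in each of the 4 profiles. With early set as above 0.5 and late as below -0.5, 61 members (89.7%) were early in auxin cells and 62 (91.2%) in control cells. Of all genes, 67.0% were early in auxin cells and 67.4% in control cells. Only 2 members (2.94%) were late in auxin cells and 1 (1.47%) in control cells, against 23.9% and 23.8% of all genes. The remaining 5 members were middle in each group. On the mean of all 4 profiles, 37 members (54.4%) scored above 3, against 27.7% of all genes. These shares describe the genes, since neighbouring genes share windows and no test was made over them.

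**Figure D1:**
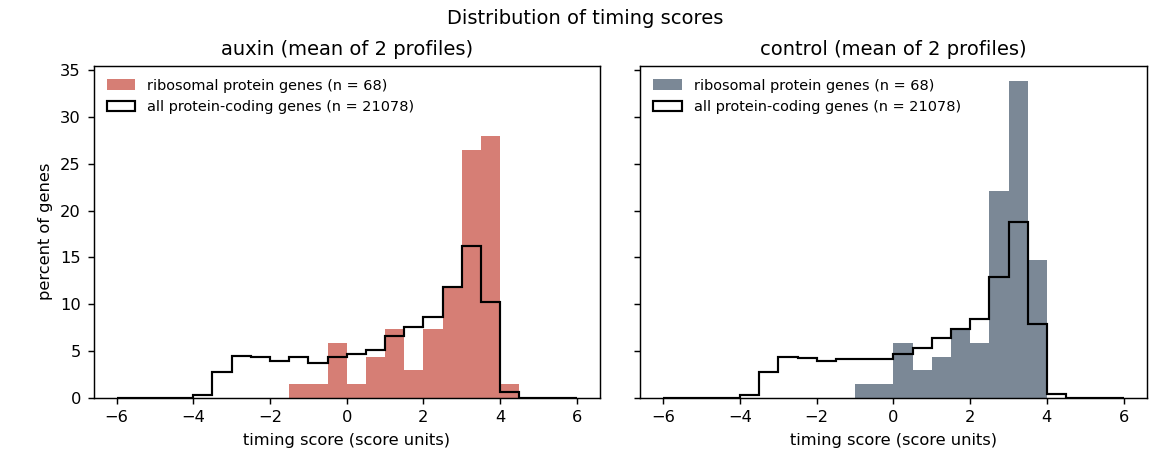
Share of genes by timing score (score units, auxin group left of the control group) for the 68 ribosomal protein genes and for all 21078 protein-coding genes. The members pile up at high scores, with medians of 3.14 in auxin cells and 2.99 in control cells, and nearly lack the late mode that holds 23.9% of all genes in auxin cells and 23.8% in control cells.

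The earliest large-subunit member was Rpl10a, whose protein forms the mobile stalk beside the tRNA exit site, with 3.78 and 4.10 in auxin profiles and 4.32 and 3.40 in control profiles. Among the earliest small-subunit members were Rps28 and Rps26, whose proteins line the mRNA exit channel. Rps28 scored 4.33 and 3.47 in auxin and 3.29 and 3.61 in control profiles. Rps26 scored 3.27 and 4.29 in auxin and 3.29 and 3.80 in control profiles. Rps18, a protein of the subunit's head, scored 3.61 and 3.47 in auxin and 4.15 and 3.43 in control profiles. The groups overlapped at all 4 of these genes, and their means over all profiles, between 3.66 and 3.90, lie closer together than most of the replicate pairs, so their order is not resolved. The widest gap between replicates was at Rpl26, of the large subunit, which stood at 2.85 and 3.40 in auxin profiles and at 2.74 and 4.56 in control profiles.

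Few members replicated late. Rps23, whose protein sits at the decoding centre, scored -0.47 and -1.08 in auxin profiles and -0.37 and -0.04 in control profiles. Rpl7, a large-subunit protein, scored -0.47 and -0.10 in auxin and -0.69 and -0.49 in control profiles. Rpl34, also of the large subunit, scored -1.07 and -0.98 in auxin and 0.18 and 0.42 in control profiles. All 3 were below 0 in both auxin profiles, and Rpl7 was the only one of them that was higher in auxin than in control cells. Rpl37, a zinc-binding large-subunit protein gene, scored 0.01 and -0.27 in auxin and 0.18 and 0.66 in control profiles, and Rps12, of the small subunit, -0.24 and 0.11 in auxin and 0.15 and 0.57 in control profiles. The class differed between groups at 4 of the 68 members, a share close to that over all genes (1360 of 21078). Rpl34 and Rps23 were late in auxin and middle in control cells, Rpl15 was middle in auxin and early in control cells, and Rpl7 was middle in auxin and late in control cells.

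**Figure D2:**
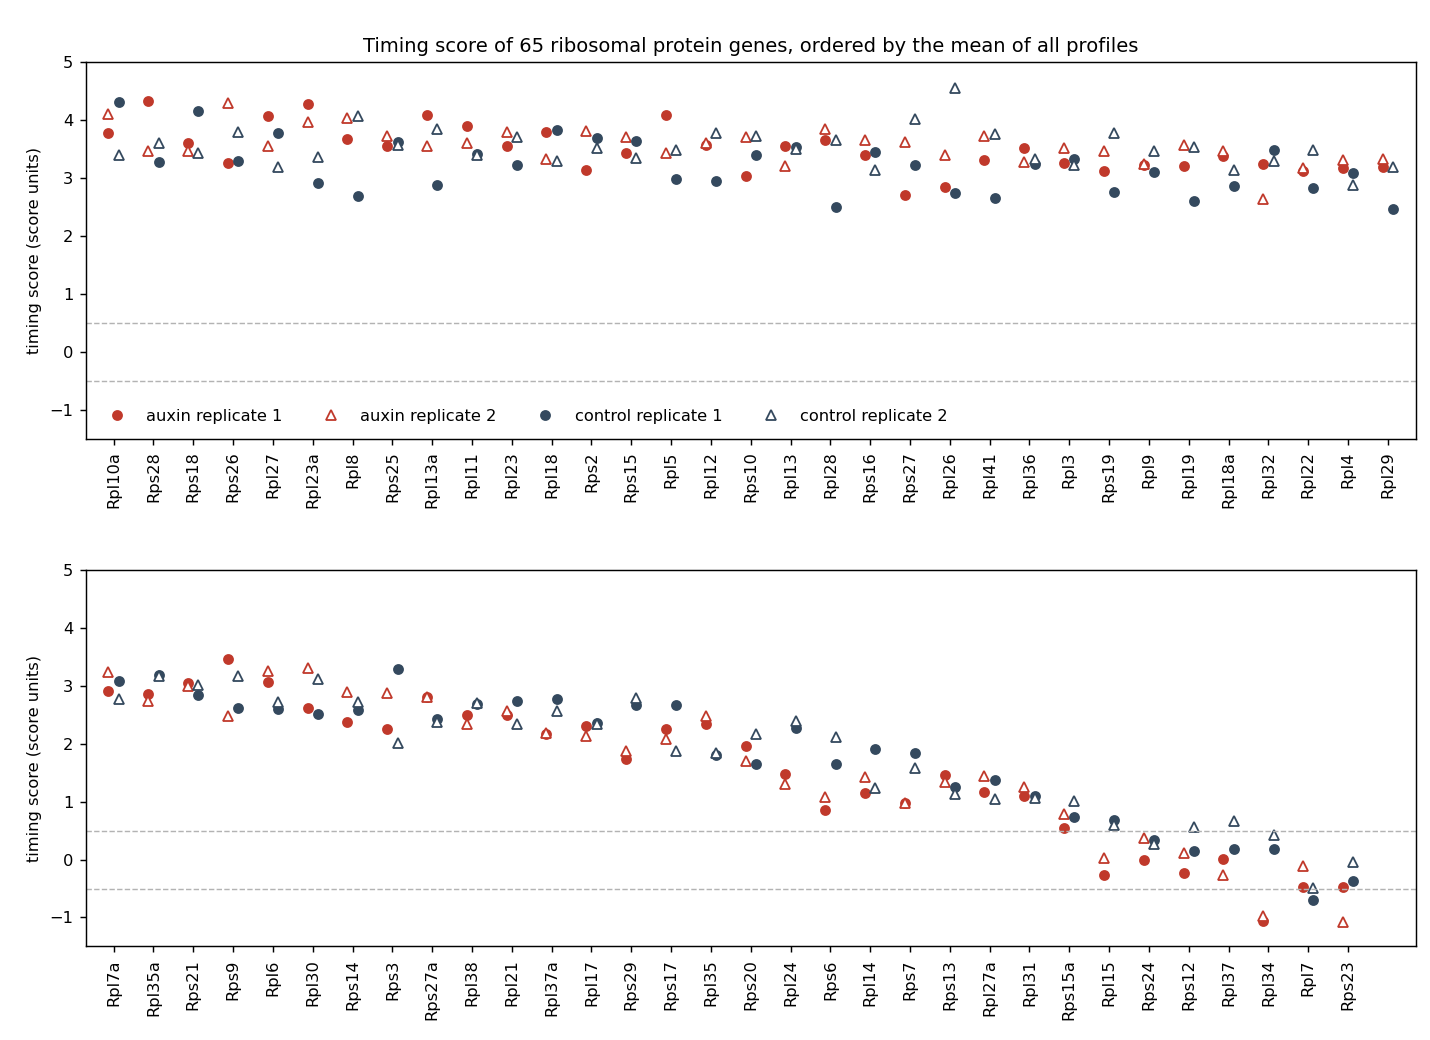
Timing score (score units) of 65 of the 68 members in the 2 auxin and 2 control profiles, with members ordered by their mean and dashed lines at the class limits of 0.5 and -0.5. Most members sit above 2 in all 4 profiles, and 7 have means below 0.5. The groups overlap at 43 of all 68 members (63.2%, against 50.2% of all genes).

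Members also tended to stand above their surroundings. The median score minus that of the flanks, the windows 200 to 500 kb away on either side, was 0.63 in auxin cells and 0.64 in control cells, against 0.28 and 0.32 over all genes. In auxin cells 62 members (91.2%) and in control cells 59 (86.8%) were above their flanks, against 64.5% and 64.1% of all genes. The members were also split by mean score, after the values were seen. The 47 members above 2.5 had median heights of 0.52 in auxin and 0.48 in control cells. Over all genes of that range the medians were close to these, at 0.45 and 0.49. The 14 members between 0.5 and 2.5 had 0.85 and 0.88, against 0.59 and 0.72. The 7 below 0.5 had 0.86 and 1.38, against -0.37 and -0.40. Translation factor genes stood higher in the median than the 68 members, with 0.73 in auxin and 0.82 in control cells, as did ribosome assembly genes, with 0.67 and 0.70. The other cytosolic ribosomal protein genes and paralogues had 0.87 and 0.92. Mitochondrial ribosomal protein genes stood lower than the members, with 0.44 and 0.54. In auxin cells 95.8% of translation factor genes and 97.9% of ribosome assembly genes were early, and 95.8% and 95.7% in control cells. The share was 90.5% in both groups for the other cytosolic genes and 84.8% in both for the mitochondrial ones. The height over the flanks was 2.68 in auxin and 3.19 in control cells at Rps7, and 2.55 in auxin and 2.69 in control cells at Rps20. Rpl7 lay below its flanks, by -0.60 in auxin and -0.83 in control cells. A median of 10.5 protein-coding genes lay within 250 kb of a member, against 8 around all genes but 13 around all genes shorter than 10 kb. Across the 68 members, the mean score went with that number (Pearson's r of 0.65, Spearman's rho of 0.80), as it did more weakly over all genes (0.34 and 0.48). These correlations run across genes, some of which share windows, and are given as a description.

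The members lie on 18 chromosomes, with 13 on chromosome 7, 7 on chromosome 11, 6 on chromosome 17 and none on chromosome 19. Few members lie within 500 kb of each other. Rpl41 and Rps26 are 75.4 kb apart on chromosome 10, Rps28 and Rps18 127 kb apart on chromosome 17, and Rpl23 and Rpl19 240 kb apart on chromosome 11. The mean scores within these pairs were close, with 3.37 at Rpl41 and 3.66 at Rps26, 3.67 at both Rps28 and Rps18, and 3.58 at Rpl23 and 3.23 at Rpl19. Most other members thus read out a locus of their own.

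Comparing auxin with control cells asks whether breakdown of CTCF shifts when these loci replicate. In the limma fit over all 21078 genes, 0 of 68 members passed a Benjamini-Hochberg adjusted p of 0.05 in either direction (0% of all genes later, 0% earlier), and the smallest adjusted p was 0.172. At an unadjusted p under 0.05, 7 members (10.3%) were later and 3 (4.41%) earlier with auxin, against 9.5% and 7.63% of all genes. With a variance that follows the mean score and is robust to outlying genes, limma called 6 members later (8.82%) and 0 earlier, against 3.3% and 2.01% of all genes. Those 6 were Rpl34, Rpl24, Rpl15, Rps29, Rps6 and Rps7, of which 3 belong to each subunit. Of the 8325 genes with a mean score above 2.5, the trended, robust fit called 20 later and 7 earlier. As 47 of the 68 members lie in that range, most members lie where this fit made few calls in either direction. With any 1 profile left out, the trended, robust fit called fewer members and fewer genes. The share of members called was then not in each case above that of all genes. The differences of the 6 members stayed negative, from -1.45 to -1.20 at Rpl34 and from -0.86 to -0.61 at Rps7.

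As a group the members had a median difference, auxin minus control, of 0.07 score units, against -0.00049 over all genes. There were 37 members higher and 31 lower in auxin cells. The median was 0.12 over the Rpl genes and -0.05 over the Rps genes. Its sign rested on single profiles: it was -0.03 without auxin replicate 2 and -0.02 without control replicate 1, against 0.14 without auxin replicate 1. Both auxin profiles were below both control profiles at 14 members (20.6%), against 25.9% of all genes, and above both at 11 members (16.2%), against 23.9%. The median gap over the members was 0.27 between the auxin replicates, 0.33 between the control replicates and 0.26 between the group means. Over all genes these medians were 0.22, 0.26 and 0.28. The replicate gaps are between single profiles and the group gap between means of 2, so their sizes are not directly comparable. A difference of 0.5 or more toward later replication was found at 9 members (13.2%, against 11.9% of all genes) and toward earlier replication at 5 (7.35%, against 10.3%). At 0.9 or more, 4 members were later (5.88%, against 2.17%) and 1 earlier (1.47%, against 1.4%).

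Among large-subunit genes, Rpl34 differed most. Both of its auxin profiles, at -1.07 and -0.98, lay more than a unit below the control profiles, at 0.18 and 0.42. The difference was -1.33 ± 0.21 (SE, limma, n = 2 each), with an adjusted p of 0.172 in limma and 0.00698 in its trended, robust form, and it stayed between -1.45 and -1.20 when any 1 profile was left out. Rpl34 (chromosome 3, 130726827 to 130730398) is also the only member inside one of the 63 regions that the authors' deposited table lists as early-to-late, at 130692000 to 130824000. That table gives the region -1.19 and -0.92 in the auxin profiles and 0.17 and 0.14 in the control profiles. The authors' late-to-early list of 22 regions overlapped 0 members. How many of all genes lie in the regions of either list was not counted. Both lists were chosen on these same profiles and are not independent evidence.

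Rpl24, a large-subunit gene a mutation of which underlies the mouse mutant Belly spot and tail, scored 1.47 and 1.31 in auxin profiles, against 2.28 and 2.40 in control profiles. The groups lay well apart, with a difference of -0.95 ± 0.20 (SE, n = 2 each; limma adjusted p of 0.172, trended and robust 0.0183). Its body lies 56.6 kb from an early-to-late region of the authors' deposited table, on chromosome 16 from 56028000 to 56172000. Rpl15, one of the large-subunit genes mutated in human Diamond-Blackfan anaemia, scored -0.27 and 0.02 in auxin and 0.69 and 0.61 in control profiles. Its difference was -0.77 ± 0.21 (limma adjusted p of 0.182, trended and robust 0.0283).

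Among small-subunit genes, Rps29, which encodes a small zinc-binding protein, scored 1.74 and 1.88 in auxin profiles and 2.67 and 2.79 in control profiles. Rps6, whose protein is phosphorylated downstream of mTOR signalling, scored 0.86 and 1.08 in auxin and 1.66 and 2.11 in control profiles. Rps7, whose product also helps process ribosomal RNA, scored 0.98 in both auxin profiles and 1.85 and 1.59 in control profiles. At all 3 genes the groups were apart by more than the gap between replicates. The differences were -0.92 ± 0.20 for Rps29, -0.92 ± 0.24 for Rps6 and -0.73 ± 0.21 for Rps7 (SE, n = 2 each). Their limma adjusted p-values were 0.172, 0.177 and 0.186, and those of the trended, robust form were 0.0276, 0.0251 and 0.0354. Rps23 and Rpl37 completed the 8 members with the largest differences toward later replication, with -0.57 ± 0.27 and -0.55 ± 0.25. Their auxin profiles also lay below both control profiles, but Rps23 had an adjusted p of 0.334 and Rpl37 of 0.314 in limma, and neither was called in the trended, robust form. Rps23 differed by -0.27 without auxin replicate 2 and -0.87 without auxin replicate 1, and Rpl37 by -0.31 without control replicate 2.

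The stretches of DNA around the transcription starts of 5 of the 6 members called in the trended, robust form are shown to set the genes beside their promoters. They come from RefSeq on GRCm38.p6, the assembly behind mm10, which had an entry for 49 of the 68 members, and Rps29 was not among them. Each runs from 60 bases before the outermost start in that table to the 30th transcribed base, on the strand of the gene, and capitals mark a match to one of 4 motifs described further on. Rpl34 is at chr3:130730369-130730458, minus strand. Rpl24 is at chr16:55966215-55966304, plus strand, and Rpl15 at chr14:18270957-18271046, minus strand. Rps6 is at chr4:86857338-86857427, minus strand, and Rps7 at chr12:28635924-28636013, minus strand.
Rpl34: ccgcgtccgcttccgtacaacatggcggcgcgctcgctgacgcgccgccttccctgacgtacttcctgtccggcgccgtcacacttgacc
Rpl24: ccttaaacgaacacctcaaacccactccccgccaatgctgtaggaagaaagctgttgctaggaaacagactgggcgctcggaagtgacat
Rpl15: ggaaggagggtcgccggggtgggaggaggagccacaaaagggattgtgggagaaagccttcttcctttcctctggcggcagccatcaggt
Rps6: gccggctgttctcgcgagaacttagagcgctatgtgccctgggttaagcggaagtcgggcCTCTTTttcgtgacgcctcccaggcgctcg
Rps7: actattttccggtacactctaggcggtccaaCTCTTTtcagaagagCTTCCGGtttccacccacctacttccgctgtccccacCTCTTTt
The capitals in Rps6 mark a pyrimidine tract that begins at that start, and those in Rps7 mark 2 such tracts and between them an ETS core on the other strand. Rpl34, Rpl24 and Rpl15 hold none of the 4 motifs in the stretch shown.

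The differences at the later members were parts of longer stretches. Around Rpl34, windows whose groups did not overlap and whose means differed by 0.5 or more toward later replication spanned 1068 kb (163 windows, chromosome 3, 130614001 to 131682000), with a mean difference of -1.15. Windows were counted in order, so a stretch can cross grid positions that hold no window, as those of Rpl34, Rpl24 and Rpl23a do. The gene lay near one end, with 115 kb on the lower side of its midpoint and 953 kb on the upper side. The stretch around Rpl24 spanned 390 kb (chromosome 16, 55848001 to 56238000, mean difference of -0.98). Around Rps6 the stretch measured 222 kb, around Rps29 132 kb, around Rpl15 120 kb and around Rps7 78 kb. Around Rpl37 and Rps23 it measured 48 and 30 kb. The sources used here do not say whether windows share reads through smoothing, so a stretch is not a count of independent windows.

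Genes near the later members mostly had the same direction. All 9 protein-coding genes within 300 kb of Rpl24 were lower in auxin cells, and limma's trended, robust form called 7 of them, with the largest difference at Senp7 (-1.11). All 9 genes near Rps29 were lower as well, 5 of them called, among them Rpl36al, a ribosomal protein paralogue (-1.23), and Mgat2 (-1.24). Near Rpl34, 3 of 3 genes were lower, of which Ostc (-1.07) and Etnppl (-0.85) were called. Near Rps7 8 of 8 and near Rpl15 4 of 4 genes were lower, with 3 and 2 of them called. Rps6 differed: 3 of its 7 neighbours were lower and only Acer2 (-0.86) was called. Neighbours share windows and profiles with the members, so these counts describe the extent of the stretches.

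**Figure D3:**
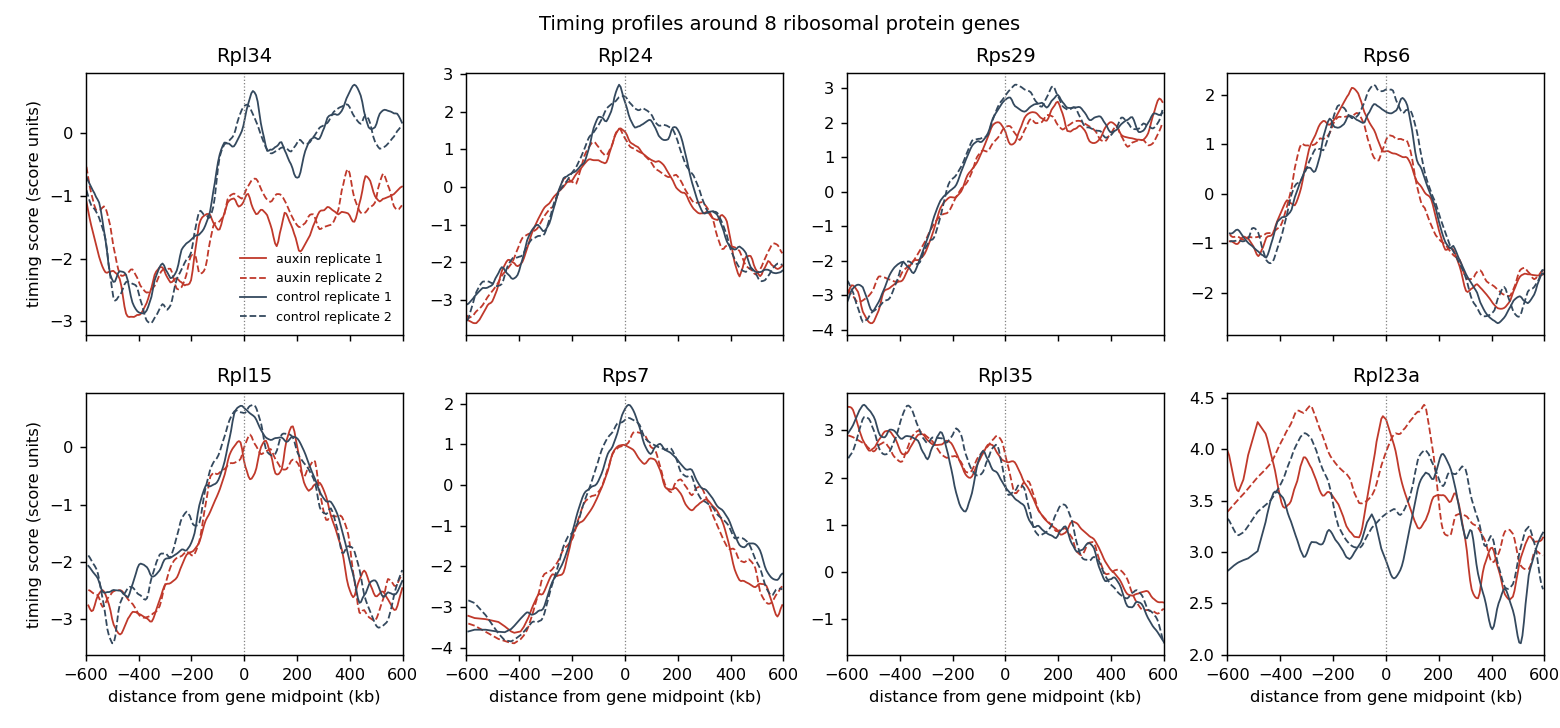
Timing score (score units) by distance from the gene midpoint (kb) in the 2 auxin and 2 control profiles around 8 named members. At Rpl34, Rpl24, Rps29, Rps6, Rpl15 and Rps7 the auxin profiles run below the control profiles over the gene, while at Rpl35 and Rpl23a they run above.

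Toward earlier replication, Rpl23a, whose protein lies at the exit of the peptide tunnel, had the largest difference. It scored 4.29 and 3.97 in auxin profiles, against 2.91 and 3.37 in control profiles. The groups did not overlap, and the difference was 0.99 ± 0.25 (SE, n = 2 each), with a limma adjusted p of 0.174, or 0.145 in the trended, robust form. Around it the windows with auxin above control by 0.5 or more spanned 120 kb (15 windows, chromosome 11, 78138001 to 78258000). Of 24 neighbours within 300 kb, 17 were higher in auxin cells and 0 were called. Rpl35, another tunnel-exit protein gene, scored 2.35 and 2.48 in auxin and 1.80 and 1.85 in control profiles, a difference of 0.59 ± 0.20 (limma adjusted p of 0.234) over a stretch of 30 kb. Both genes kept their groups apart and stayed above 0.5 with any 1 profile left out.

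Several other members with large positive differences depended on single profiles. Rpl28, of the large subunit, scored 3.66 and 3.84 in auxin profiles, against 2.51 and 3.66 in control profiles. Its difference of 0.67 ± 0.37 was 0.10 without control replicate 1 and 1.25 without control replicate 2. Rpl5, whose protein carries a ribosomal RNA into the large subunit and can bind Mdm2, scored 4.09 and 3.44 in auxin and 2.98 and 3.48 in control profiles (0.53 ± 0.30, or 0.21 without auxin replicate 1 and 0.86 without auxin replicate 2). Rpl6, of the large subunit, was steadier, with 3.06 and 3.26 in auxin and 2.60 and 2.72 in control profiles (0.50 ± 0.21, limma adjusted p of 0.286). Rpl8, a protein near the peptidyl transferase centre, differed by 0.47 ± 0.43, and by -0.22 without control replicate 1 and 1.16 without control replicate 2. None of these members was called in limma or in its trended, robust form.

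The 4 members of this set with a RefSeq promoter entry are shown for comparison with the called ones, over the same bases relative to the start. Rpl28 is at chr7:4792905-4792994, plus strand, Rpl35 at chr2:39005102-39005191, minus strand, Rpl5 at chr5:107900468-107900557, plus strand, and Rpl6 at chr5:121204441-121204530, plus strand.
Rpl28: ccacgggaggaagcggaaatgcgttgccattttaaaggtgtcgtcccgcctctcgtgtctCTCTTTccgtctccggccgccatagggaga
Rpl35: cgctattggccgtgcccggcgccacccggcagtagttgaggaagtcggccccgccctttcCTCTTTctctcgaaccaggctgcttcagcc
Rpl5: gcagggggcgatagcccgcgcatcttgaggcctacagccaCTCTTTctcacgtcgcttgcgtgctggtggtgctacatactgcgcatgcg
Rpl6: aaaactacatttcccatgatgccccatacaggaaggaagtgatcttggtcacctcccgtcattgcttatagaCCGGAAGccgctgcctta
The capitals mark a pyrimidine tract that begins at that start in Rpl28 and Rpl35 and before it in Rpl5, and an ETS core past the start in Rpl6.

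The direction of the difference went with the timing of the member. This split was made after the values were seen. Of the 7 members whose mean score was below 0.5, the median difference was -0.55, and at 5 of them both auxin profiles lay below both control profiles. Over all genes of that range the median was -0.02, and 29.3% had auxin below control. The 14 members between 0.5 and 2.5 had a median of -0.17, against -0.03 over all genes of that range. Both auxin profiles lay below both control profiles at 6 of them (42.9%, against 32.9% of all genes) and above at 2 (14.3%, against 28.4%). The 47 members above 2.5 had a median of 0.14, against 0.03. Median scores of the members in that range were 3.27 and 3.46 in the auxin profiles and 3.09 and 3.37 in the control profiles. Auxin replicate 1 thus lay below control replicate 2 in that range. There auxin lay below control at 3 members (6.38%, against 18.1%) and above it at 8 (17.0%, against 19.8%), so the share with auxin above was no larger than over all genes of that range. Across members the correlation of mean score with difference was 0.53 (Spearman's rho of 0.50), against 0.05 (0.07) over all genes. Across genes this is a description, since both measures come from the same 4 profiles.

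Height over the flanks sorted the members in a similar way, in a split that was likewise not planned beforehand. The 10 members that stood 1.5 or more above their flanks included Rps27a, Rpl15, Rpl32, Rps29, Rps6, Rpl37, Rps20, Rpl24 and Rps7. Their median difference was -0.64. Both auxin profiles were below both control profiles at 7 of them (70.0%), and limma's trended, robust form called 5 of them later. Over the 2319 genes of that height the median difference was -0.22, with 43.9% lower in auxin and 9.49% called later. Not all high peaks were lower: Rps27a, which encodes a fusion of ubiquitin to a small-subunit protein, scored 2.82 and 2.80 in auxin profiles, against 2.43 and 2.38 in control profiles. The 26 members between 0.5 and 1.5 had a median difference of -0.02 and the 32 below 0.5 of 0.13, against -0.10 and 0.08 over all genes. The correlation of height with difference was -0.53 across members (Spearman's rho of -0.45) and -0.28 (-0.27) over all genes, again as a description.

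**Figure D4:**
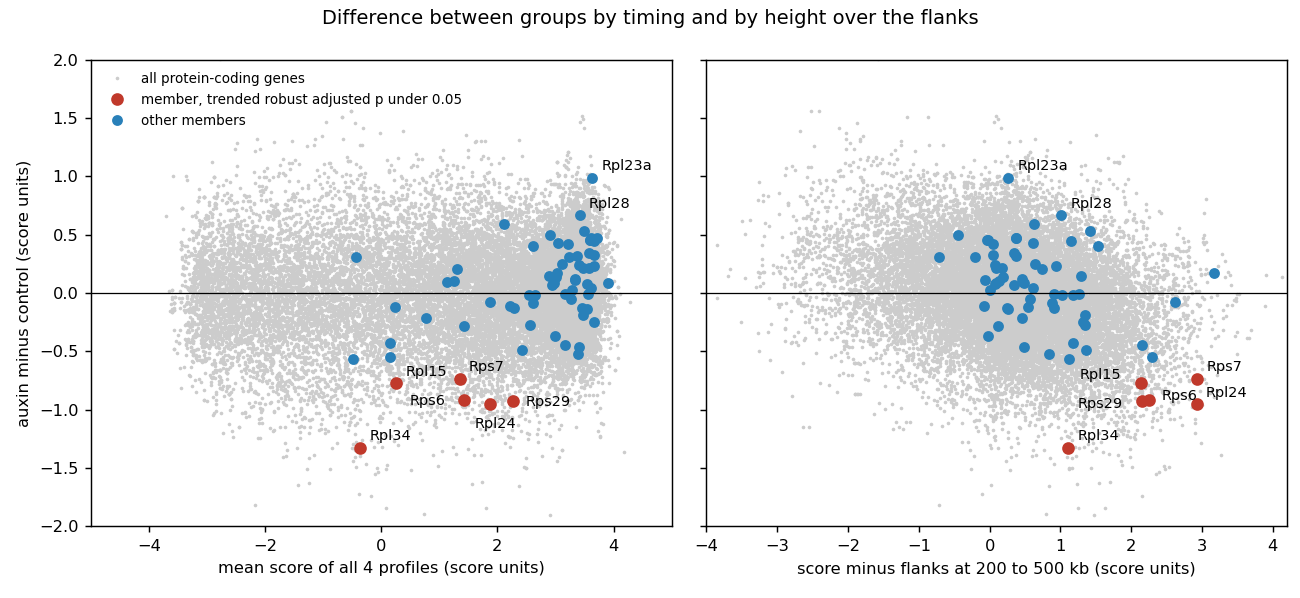
Difference in score (auxin minus control, score units) against the mean score of all 4 profiles (left) and against the height over flanks 200 to 500 kb away (right), for all genes and the 68 members. The 6 members called later by the trended, robust fit lie at mean scores below 2.5, and 5 of them stand 1.5 or more above their flanks. Of the 695 genes that this fit called later, only 20 had a mean score above 2.5, and of the 424 called earlier, only 7. The low scores are thus not particular to the members. The 7 genes outside the plotted range of -2 to 2 are not drawn.

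Rps19, the gene most often mutated in human Diamond-Blackfan anaemia, scored 3.13 and 3.46 in auxin profiles and 2.76 and 3.78 in control profiles. The groups overlapped, the difference was 0.02 ± 0.35, and its sign turned with single profiles left out (-0.49 to 0.54). Rpl11, which binds Mdm2 together with Rpl5, scored 3.90 and 3.61 in auxin and 3.42 and 3.40 in control profiles. Its groups did not overlap, and the difference was 0.34 ± 0.21 (limma adjusted p of 0.44), or 0.20 without auxin replicate 1. Rpl38, whose mutation in mice alters translation of Hox mRNAs, averaged 2.42 in auxin and 2.69 in control cells, with a difference of -0.28 ± 0.20 (adjusted p of 0.514).

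Other genes of the translation machinery were followed as lists of named genes, and 0 genes of any of the 4 lists passed in the limma fit. The 21 measured genes of the remaining cytosolic ribosomal proteins and their paralogues, of 23 listed, had a median difference of -0.05. The trended, robust form called 1 of them later, Rpl36al, with 1.37 and 1.85 in auxin profiles and 2.66 and 3.01 in control profiles. On chromosome X, Rpl39 was higher in auxin cells, with 2.96 and 3.14 in auxin and 2.61 and 1.79 in control profiles, and was not called. The retrogene Rpl10l, expressed in testis, was the late exception, with -2.31 and -2.87 in auxin and -2.93 and -2.05 in control profiles. The 79 mitochondrial ribosomal protein genes had a median of 0.05, and the trended, robust form called Mrpl50 later (-0.82) and Mrpl35 earlier (0.93). The 48 translation factor genes had a median of 0.09 and no call, with the largest differences at the initiation factor subunits Eif3c (0.92) and Eif3l (0.75). The 47 measured genes of ribosome assembly, of 50 listed, had a median of 0.19, and Taf1b, a subunit of the RNA polymerase I factor, was called later (-0.79). The assembly factor Pes1 differed by 0.78 and was not called. The share called later in the trended, robust form was 3.3% of all genes.

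**Figure D5:**
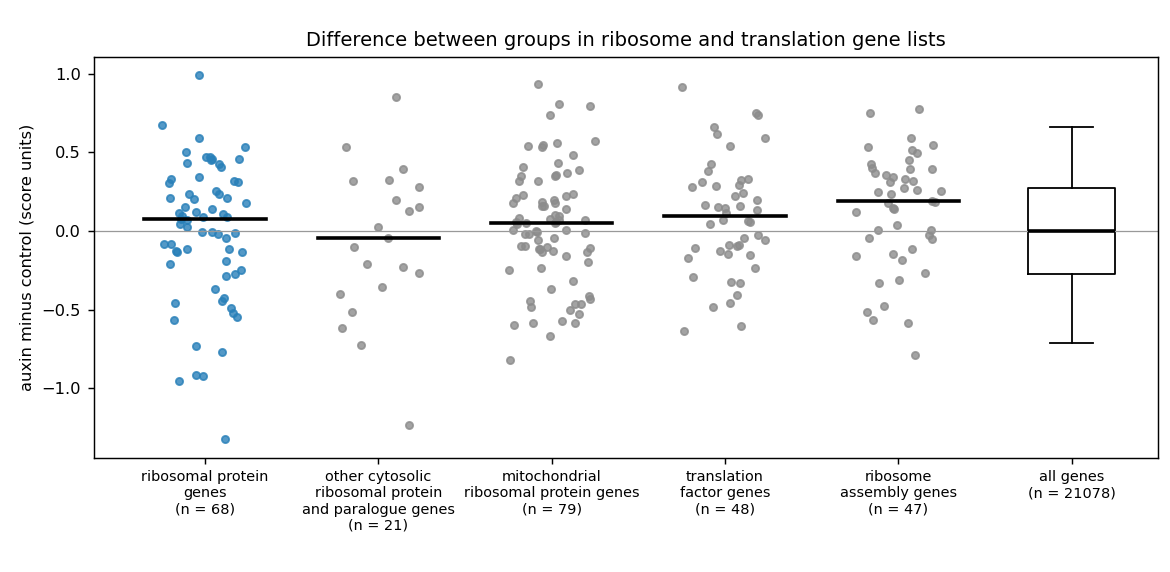
Difference in score (auxin minus control, score units) of each gene of the 68 members and of the 4 other translation lists, with a line at the median of each list, beside a box plot of all 21078 genes (box from the lower to the upper quartile, whiskers from the 5th to the 95th percentile). The list medians run between -0.05 and 0.19, and the members reach from -1.33 at Rpl34 to 0.99 at Rpl23a.

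The promoters of the members were searched for 4 motifs on both strands, over 250 bases before to 50 bases after the start. The ETS core CCGGAAG was found at 19 of 49 members (38.8%), against 12.2% of 16905 gene promoters of the same length. The pyrimidine tract CTCTTT, a stand-in for the tract at which ribosomal protein mRNAs usually start, was found at 24 members (49.0%), against 21.7%. These matches lie on either strand and anywhere in those bases. On the strand of the gene it was found at 19 members (38.8%), against 11.3%. The consensus of NRF1, a factor of nuclear genes for mitochondrial function, was found at 1 member, Rpl37a (2.04%), against 1.94%. The core consensus of CTCF was found at 0 of 49 members, against 0.455% of all gene promoters. A lack of a match says only that these letters are not in this window, and it does not bear on binding of the factor. At no member did a match of one motif overlap a match of another.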

How the data were processed

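Repli-seq libraries (8) of CTCF-degron mouse embryonic stem cells were deposited as 4 timing profiles, 2 auxin and 2 control, matched to groups by column name. The submitters' processing notes name mm10, Bowtie2, SAMtools and bedtools. Not given in the sources used here: versions, smoothing and the formula joining early and late libraries. The authors deposited a quantile-normalized timing score per window of a 6-kb grid (316864 windows), per the file headers' names, and lists of regions with the mean score per profile. Window positions were read as starts.

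Gene bodies came from RefSeq (GRCm38.p6). Genes without a window took the nearest within 50 kb (1063 of 21078). Groups were compared with limma 3.58.1 in R 4.3.3 (lmFit, then eBayes without trend or robust variances) over all genes, with Benjamini-Hochberg adjustment. Permuting 2 against 2 profiles cannot give a p below 0.333, so no exact permutation test was used. On simulated data for this comparison (21078 genes, 50 per shift), limma recovered 0%, 4%, 30% and 76% of genes shifted by 0.5, 1, 1.5 and 2. Its trended, robust form recovered 0%, 4%, 22% and 70%, and each form made 2 false calls. The simulated spread did not follow the score and few genes were shifted, so these rates need not hold for the data. The correlation of same-numbered replicates' deviations was 0.10 over all genes, and with 2 pairs it does not establish pairing.

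The members and lists were chosen with earlier results of these data known. Named members are the 8 largest differences in each direction, the 5 earliest and 5 latest, those called in either limma form, those in the authors' regions, those within 500 kb of another, and Rpl5, Rpl11, Rps6 and Rps19. Others are the 2 largest differences of each list, Pou5f1, Nanog, Sox2 and Ctcf. Rpl26, Rps20, Rps27a, Rpl32, Rpl38, Rpl10l and neighbouring genes were named after their values were seen. Some members that this rule names are not reported here.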

Additional observations from a re-analysis of the deposited data

How the results depend on the processing

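Limma called 0 genes and 0 members over all genes, with at least 1 or 3 windows per gene, with windows within 50 kb of the midpoint, with the window nearest the start, with window positions read as centres and with a replicate block; the last changed no call. The trended, robust form called 1119 genes and 6 members, and 1391 genes with at least 3 windows (chosen after seeing the data). With single profiles left out, limma called 0 to 1 genes and 0 members, and the trended, robust form (added after seeing the data) 460 and 671 genes without auxin replicates 1 and 2 and 520 and 401 without control replicates 1 and 2, with 1, 3, 4 and 1 members. The member median difference was 0.075 with a replicate block, 0.035 with at least 1 window, 0.045 at the start, -0.0020 within 50 kb, -0.11 with at least 3 windows, and -0.030 to 0.14 with single profiles left out. With at least 3 windows only 2 members remain, early in both groups (2 and 2, 0 middle and 0 late), with median scores of 1.91 in auxin and 2.02 in control cells, replicate gaps of 0.15 and 0.47, a group gap of 0.11, and 0 with the groups apart. Late members numbered 1 to 2 in auxin and 0 to 1 in control cells with single profiles left out, and 0 in control within 50 kb and at the start (49 members). With limits of 1 and -1, 1 member was late and 9 middle in auxin, against 0 and 8 in control cells; split at 0, 6 were late in auxin and 2 in control cells (0 middle). At the start, where 49 members have a value, 7 were higher with groups apart. Replicate gaps were 0.21 in auxin and 0.25 in control cells within 50 kb, and 0.37 in control with positions as centres. Height over the flanks was 0.33 and 0.30 at 100 to 300 kb, and 1.00 and 1.04 at 500 to 1000 kb, in auxin and control cells. Signs turned for Rps19 (-0.014 within 50 kb, -0.49 to 0.54 with a profile left out, -0.14 without auxin replicate 2) and Rpl8 (-0.22 to 1.16). The causes were not tested beyond the smaller sets of genes. Members rest on few windows and unknown depth. Limma recovered 0% of simulated shifts of 0.5 and 4% of shifts of 1, with few genes shifted and a spread unrelated to the score. The trended, robust form had the same simulated rates but called 6 members here, so these rates need not hold for the data. A lack of a call does not show that a difference is absent.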
